A study of Mus musculus with 8 samples.

Results

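A set of 9 genes, retinoid enzymes and carriers plus Tgm2, was followed in murine spleen stromal cells whose retinoic acid (RA) signaling was inhibited. They are Rdh10, Dhrs9, Dhrs3, Rdh11, Aldh1a1, Aldh1a3, Crabp1, Fabp5 and Tgm2, chosen by symbol among the 12589 genes of the deposited comparison, and all 9 had a value there. The cells were the stromal line mSSC-YFP, grown in DMEM with serum and antibiotics and treated for 48 h with BMS493, an inhibitor of RA signaling that binds the RA receptors as an inverse agonist, or with its vehicle DMSO. By their labels, 4 cultures received BMS493 and 4 received DMSO. The labels give no dose, and the study's methods give 1 μM for BMS493 treatments of stromal cells. The labels do not say whether the cultures were grown separately, so that the listed p-values may measure technical spread only. All cultures are of 1 line, which limits it as a model of spleen stroma, and all carry the same serum, whose retinoid content is not given.

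Retinol taken up from serum is oxidised to retinaldehyde by dehydrogenases such as RDH10, a step that reductases such as DHRS3 run backwards. Retinaldehyde dehydrogenases of the ALDH1A family then oxidise retinaldehyde irreversibly to RA. Inside the cell RA is held by binding proteins, CRABP1 and CRABP2 in the cytoplasm and FABP5 as a carrier to a different nuclear receptor, and it acts through RA receptors that sit on direct repeats in DNA. Several genes of the pathway, Dhrs3 and Rarb among them, are themselves known targets of RA, and in lymphoid tissue stromal cells are known as a source of it.

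With BMS493, 5 of the 9 genes fell and 4 rose at an adjusted p under 0.05 (limma, Benjamini-Hochberg adjustment over all 12589 genes). Of all genes, 18.6% passed this threshold, 9.79% lower and 8.80% higher, and 3.97% passed it with a fold change of at least 1.5. The 9 genes had been chosen with earlier results of these data known, so that their count is a description. With p recomputed from the listed t on 6 degrees of freedom, 7 of the 9 passed, as did 8.42% of all genes. The median gene's t and p implied 33.0 degrees of freedom and the lowest 3.27. On 3 degrees of freedom, applied to every gene, none of the 9 and none of all genes passed in limma's t. As no gene could be called, that setting cannot tell the members from other genes. An unadjusted p under 0.05 was then held by 8 of the 9 and by 1895 of all genes. Within each step the members went both ways. Among the genes that make retinaldehyde, Rdh10 fell and Dhrs9 rose. For those that reduce it, Dhrs3 fell and Rdh11 rose, and of the genes that oxidise it to RA, Aldh1a1 fell and Aldh1a3 rose. Among the carriers Crabp1 rose and Fabp5 fell, and Tgm2, a known RA target, fell. As the members were chosen with results known, their opposite directions within a step are a description too. Rdh10 and Rdh11 were the members that did not pass on 6 degrees of freedom, and Aldh1a3 lay near the floor of expression. The changes ranged from a log2 fold change of -7.63 for Dhrs3 to 2.51 for Aldh1a3, whereas the median of all genes was 0.01.

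The comparison gives 1 value per gene and none per culture, so that library depth is unknown and neither the spread between cultures nor any overlap of the groups can be shown. A group level below is the listed mean log2 normalized expression minus or plus 0.5 times the listed log2 fold change, which assumes groups of equal size. The linear levels behind the listed means sum to 989369, about what values scaled as CPM would give. Standard errors (SE) are the log2 fold change divided by the listed moderated t, and 95% intervals use the fewest degrees of freedom that the listed t and p allow. For each member, 500 genes of like mean expression show what changes are common at that level, as a description with no test. Ranks of levels among all genes are not corrected for length. The label of the cells was checked against markers. Of 13 stromal markers 11 had a value, with mean log2 expression from 5.24 to 13.29, and none of 8 haematopoietic markers had one. The endothelial markers Pecam1 and Kdr had values, with Cdh5, Tek and Emcn without, and their summed level was 8.44 with DMSO and 8.68 with BMS493. The epithelial markers Cdh1 and Krt14 had values, Epcam and Krt5 had none, and the summed level of the former was 214 with DMSO and 322 with BMS493. Nearly all of that sum was Cdh1 (213 and 319), whose mean log2 expression of 8.03 equalled that of the stromal marker Vcam1. Pdgfra, Pdgfrb, Pdpn, Ltbr and Thy1 had lower means, and Col1a1, Col1a2, Col3a1, Vim and Cxcl12 higher ones. Cdh1 rose by 0.58 on the log2 scale, Krt14 by 1.34 and Pecam1 by 0.79. Krt14 and Pecam1 had low mean log2 expression (0.96 and 0.47), and with limma's t on 6 degrees of freedom Pecam1 did not pass (adjusted p = 0.157). Of the stromal markers 6 fell and 2 rose, with summed levels of 25600 and 21300, of which Col1a1 alone had 11500 and 8670. The part of these shifts in the results below was not tested, and in bulk RNA fewer cells of a type and less RNA per cell cannot be told apart.

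**Figure D1:**
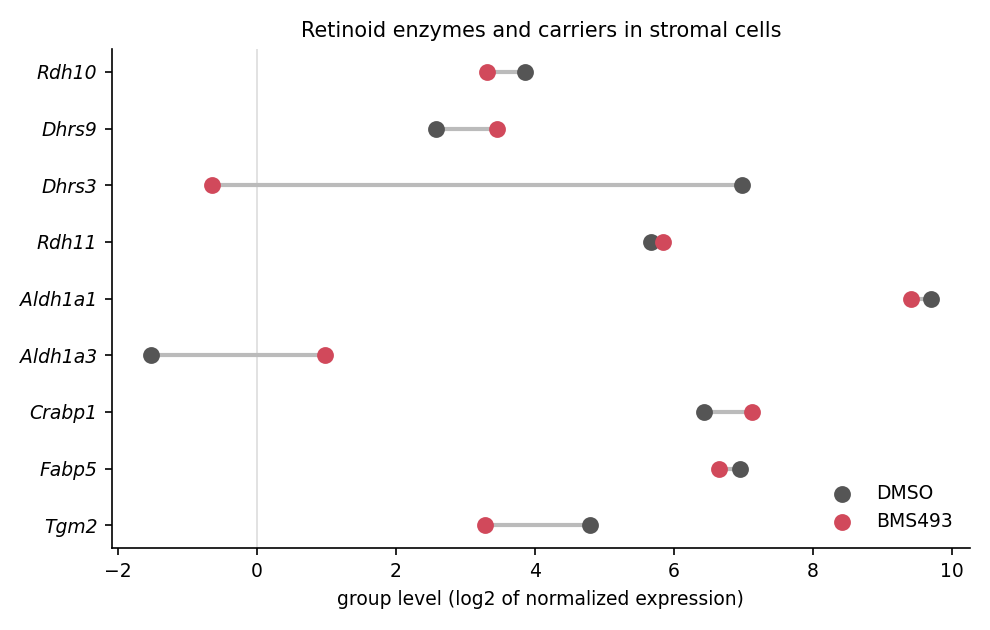
Group levels of the 9 genes (x axis, log2 of normalized expression) with DMSO (dark) and BMS493 (red), each worked out from the listed mean and log2 fold change over 4 cultures a group, with no error per group. Dhrs3 goes from 6.98 to -0.65, Aldh1a3 from -1.53 to 0.98, and the other 7 genes stay closer to their DMSO level.

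Rdh10 (ENSMUSG00000025921, chromosome 1, 16105774 to 16133734 of GRCm38, plus strand) encodes the main retinol dehydrogenase of the embryo. Its level was 3.85 on the log2 scale with DMSO and 3.31 with BMS493, or 14.4 and 9.93 on the linear scale. The log2 fold change was -0.53 (SE 0.133, 95% interval -0.81 to -0.26, limma adjusted p = 0.00608), which left 69.1% of the DMSO level. Of 500 genes of like expression, 14 had a lower fold change. Its SE was 1.26 times their median, at percentile 98.2. With p recomputed from the listed t on 6 degrees of freedom, the call was lost (adjusted p = 0.0694), where its own t and p imply 20.5.

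Dhrs9 (chromosome 2, 69380445 to 69404533, plus strand) encodes a second dehydrogenase able to oxidise retinol. It went the other way, from a level of 2.58 on the log2 scale with DMSO to 3.45 with BMS493, or from 5.99 to 10.9 on the linear scale. Its log2 fold change was 0.87 (SE 0.130, 95% interval 0.60 to 1.13, limma adjusted p = 3.71e-06), and 495 of 500 genes of like expression had a lower one. The intervals of Rdh10 and Dhrs9 lay on opposite sides of 0. Rdh5, which oxidises 11-cis-retinol in the eye, was the remaining retinol oxidation gene with a value, with a log2 fold change of -0.18 (SE 0.236) that did not pass.

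Levels of different genes were compared per kb of merged exon (GENCODE M21). Summed over these 3 genes, the level of the retinol oxidation step was 5.68 per kb with DMSO and 5.66 with BMS493, or 99.7% of the DMSO sum. The log2 ratio of the sums was 0.00 with an error of 0.0883, carried over from each gene's SE with the genes taken as independent. The makeup of the sum differed between the groups. Rdh10 held 60.9% of it with DMSO and 42.1% with BMS493, and Dhrs9 held 24.6% and 45.0%. Such sums weigh transcripts alone and say nothing of each enzyme's activity. They also depend on which genes are listed for a step. Cyp1b1, which the paper counts among RA-synthesizing enzymes, was listed under retinaldehyde oxidation only and is not in this sum. Its level was 43.4 per kb with DMSO and 22.5 with BMS493, above the whole sum in both groups.

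Dhrs3 (ENSMUSG00000066026, chromosome 4, 144892827 to 144928209, plus strand) encodes the reductase that returns retinaldehyde to retinol and so limits RA. Its level was 6.98 on the log2 scale with DMSO and -0.65 with BMS493, or 127 and 0.639 on the linear scale. With DMSO this was the 1718th highest level of 12589 genes, and with BMS493 only 9 genes had a lower one. The log2 fold change of -7.63 (SE 0.204, 95% interval -8.14 to -7.12) was the lowest of all 12589 genes, as was its t, and the limma adjusted p was listed as 0, which is under 5e-09. The level with BMS493 was 0.505% of that with DMSO (interval 0.356% to 0.717%), a 198-fold difference. Its SE was 1.67 times the median of 500 genes of like mean expression, at percentile 99.8. Those genes were matched on its mean of 3.17, a level that Dhrs3 had in neither group. The 500 genes matched to Aldh1a3, near the floor, had a median SE of 0.304, above that of Dhrs3. At a level this low a count added before logs are taken would set part of the fold change. Whether such a count was added is not stated in the sources used here, and its part was not tested.

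Rdh11 (chromosome 12, 79174337 to 79192293, minus strand), a retinaldehyde reductase of wide expression, rose slightly. Its level was 5.67 on the log2 scale with DMSO and 5.84 with BMS493, or 50.8 and 57.3 on the linear scale. The difference was 0.17 on the log2 scale (SE 0.0579, 95% interval 0.06 to 0.29, limma adjusted p = 0.0304). This was the smallest change of the 9, and 45 of 500 genes of like expression had a higher one. The call was lost at an adjusted p under 0.01, and on 6 degrees of freedom (adjusted p = 0.145), where its own t and p imply 33.0. The other reductases with a value did not pass. Their log2 fold changes were -0.02 for Dhrs4 (SE 0.0768), 0.05 for Rdh14 (SE 0.101) and -0.06 for Rdh13 (SE 0.0807).

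Over these 5 reductases the summed level was 85.1 per kb with DMSO and 44.0 with BMS493, or 51.7% of the DMSO sum (log2 ratio -0.95, error 0.0606). Dhrs3 alone held 50.8% of it with DMSO and 0.497% with BMS493. Rdh11 went from 17.3% to 37.7% and Dhrs4 from 17.0% to 32.4%, so that the sum left with BMS493 was carried by genes whose own levels had moved little.

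**Figure D2:**
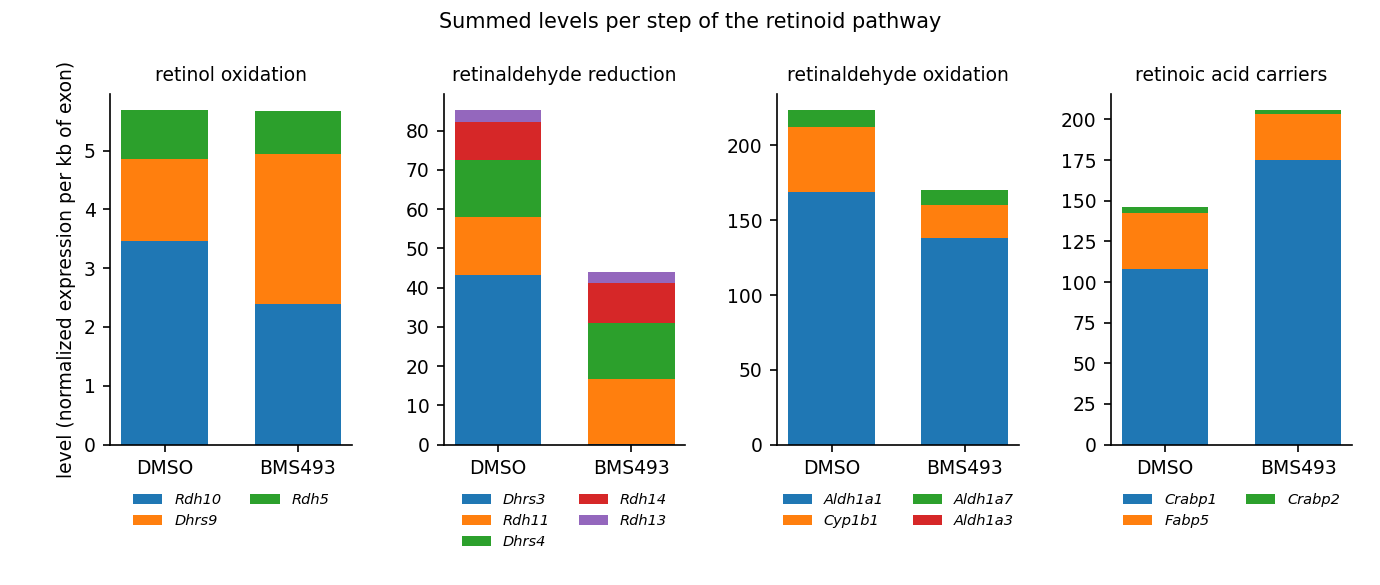
Summed levels (y axis, normalized expression per kb of merged exon, each panel with its own scale from 0) of the genes with a value in 4 steps of the pathway, with DMSO and BMS493. The retinol oxidation sums are 5.68 and 5.66 while Dhrs9 takes a larger share with BMS493, the reductase sum goes from 85.1 to 44.0 with the loss of the Dhrs3 block, and Aldh1a3, at 0.0751 and 0.428, is too small to see.

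Aldh1a1 (ENSMUSG00000053279, chromosome 19, 20492715 to 20643465, plus strand) encodes a retinaldehyde dehydrogenase and was the most expressed of the 9 genes in both groups before correction for length. Its level was 9.70 on the log2 scale with DMSO and 9.41 with BMS493, or 833 and 682 on the linear scale. These were the 114th and the 146th highest levels of all genes. This gave a log2 fold change of -0.29 (SE 0.0387, 95% interval -0.37 to -0.21, limma adjusted p = 4.4e-07), and 81.8% of the DMSO level was left. Of 500 genes of like expression 39 had a lower fold change, and 38.6% of those 500 passed the threshold. At this high level the 500 genes spread widely, with mean log2 expression from 8.19 to 10.92 around 9.56.

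Aldh1a3 (chromosome 7, 66390890 to 66427517, minus strand) encodes another enzyme of the same reaction and was the least expressed member. With DMSO its level was -1.53 on the log2 scale, or 0.347 on the linear scale, and 1 gene of the table lay below it. With BMS493 it was 0.98, or 1.97, with 832 genes below. The log2 fold change of 2.51 (SE 0.295, 95% interval 1.89 to 3.12, limma adjusted p = 4e-08) was the 4th highest of all genes, a 5.69-fold difference. The SE was 0.971 times the median of genes of like expression, whose means ran from -0.58 to 0.57 and so lay mostly above its own. Even with BMS493 its level per kb was 0.428, against 138 for Aldh1a1. Its mean log2 expression of -0.27 lay at percentile 0.107 of all genes, near the floor of the table, where an added count would again set part of the fold.

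Of the other genes listed for this step, Cyp1b1, a cytochrome P450 also known for xenobiotic metabolism, fell by 0.95 on the log2 scale (SE 0.0444). Aldh1a7, the neighbouring paralog of Aldh1a1, had a log2 fold change of -0.21 (SE 0.0952) and did not pass. It was listed as a paralog, and whether its enzyme oxidises retinaldehyde was not tested. Aldh1a2, often the main RA-making enzyme of mesenchyme, and Aldh8a1 had no value. The summed level of the step was 223 per kb with DMSO and 170 with BMS493, or 76.3% (log2 ratio -0.39, error 0.0315). Aldh1a1 held 75.6% of the sum with DMSO and 81.0% with BMS493. Cyp1b1 held 19.4% and 13.2% and Aldh1a7 4.92% and 5.55%, while Aldh1a3 held 0.0336% and 0.251%. Thus the 5.69-fold rise of Aldh1a3 left its transcripts a minor part of the step.

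Crabp1 (ENSMUSG00000032291, chromosome 9, 54764748 to 54773110, plus strand) encodes a cytoplasmic RA-binding protein. Its level was 6.44 on the log2 scale with DMSO and 7.13 with BMS493, or 86.6 and 140.0 on the linear scale. It rose by 0.70 on the log2 scale (SE 0.118, 95% interval 0.40 to 1.00, limma adjusted p = 0.0134), and all 500 genes of like expression had a lower one. Its error was also large for its level. The SE was 2.46 times the median of those genes, at percentile 99.4, and its t and p imply 5.12 degrees of freedom against 33.0 for the median gene. The call was lost at an adjusted p under 0.01. On the scale of t, 98.2% of the 500 genes lay lower.

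Fabp5 (chromosome 3, 10012548 to 10016607, plus strand) encodes a fatty acid-binding protein that can carry RA to PPARδ. Its level was 6.95 on the log2 scale with DMSO and 6.65 with BMS493, or 123 and 100 on the linear scale. Fabp5 fell, with a log2 fold change of -0.30 (SE 0.0527, 95% interval -0.41 to -0.19, limma adjusted p = 8.05e-05), and 15 of 500 genes of like expression had a lower one. The intervals of Crabp1 and Fabp5 lay on opposite sides of 0. Crabp2, which delivers RA to its receptors, had a log2 fold change of -0.38 (SE 0.221) at a mean of 1.92 and did not pass. The summed level of the 3 carriers was 146 per kb with DMSO and 206 with BMS493, or 141% (log2 ratio 0.50, error 0.0942). Of this sum Crabp1 held 74.0% with DMSO and 85.1% with BMS493.

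Tgm2 (chromosome 2, 158116402 to 158146436, minus strand) encodes tissue transglutaminase, which crosslinks proteins and is a long-known RA target. Its level was 4.79 on the log2 scale with DMSO and 3.28 with BMS493, or 27.7 and 9.69 on the linear scale. The log2 fold change was -1.51 (SE 0.107, 95% interval -1.75 to -1.28), and the limma adjusted p was listed as 0, which is under 5e-09. The level with BMS493 was 35.0% of that with DMSO, and 1 of 500 genes of like expression had a lower fold change. Tgm2 overlaps Rprd1b on the opposite strand, and 14.8% of its windows of 100 bases, about the length of a read, are shared with Rprd1b or Gm20412. The kit marked strand, but the strand setting of the counting is not given in the sources used here. Rprd1b itself had a log2 fold change of -0.07 and did not pass. Tgm2 was the only transglutaminase gene of 9 listed that had a value.

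**Figure D3:**
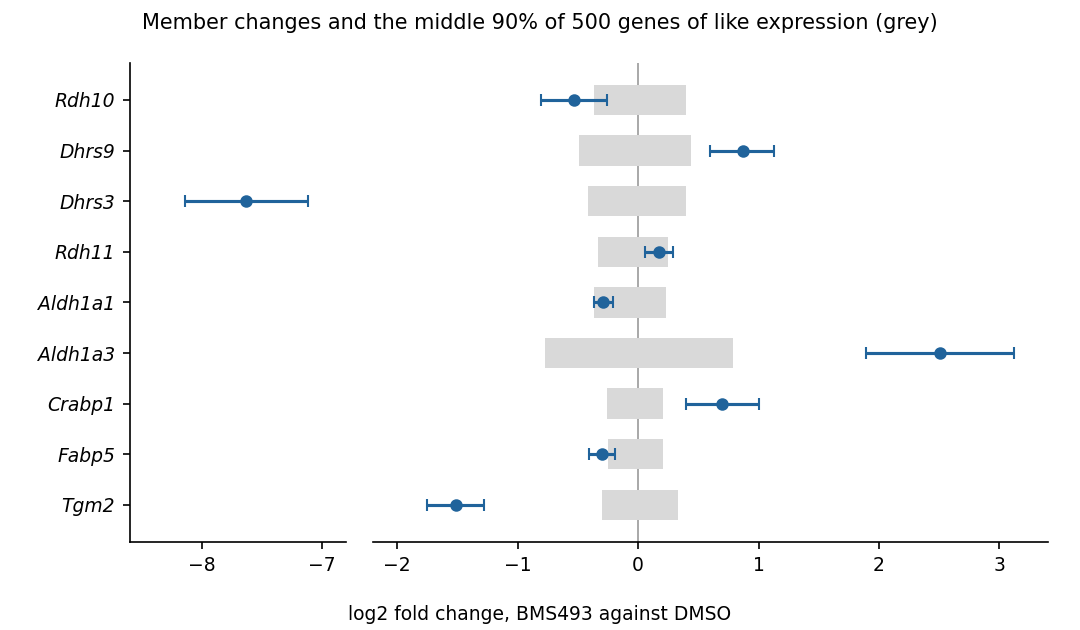
Log2 fold change of BMS493 against DMSO (x axis, with a break between Dhrs3 and the others) for the 9 genes, with 95% intervals, beside the 5th to 95th percentile of 500 genes of like mean expression (grey). Rdh11 and Aldh1a1 lie inside the grey range and the other 7 outside it.

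Compared per kb, the order of the 9 genes with DMSO was Aldh1a1 (169), Crabp1 (108), Dhrs3 (43.3), Fabp5 (34.6), Rdh11 (14.7), Tgm2 (6.01), Rdh10 (3.46), Dhrs9 (1.40) and Aldh1a3 (0.0751). With BMS493 Crabp1 (175) stood above Aldh1a1 (138), Dhrs9 (2.55) just above Rdh10 (2.39), and Dhrs3 (0.218) came last, under Aldh1a3 (0.428). The order of Crabp1 and Aldh1a1 and that of Dhrs9 and Rdh10 depend on the length used. With the longest transcript in place of merged exons, Aldh1a1 stayed first in both groups (353 and 289, against 108 and 175 for Crabp1), and with BMS493 Dhrs9 (2.55) lay under Rdh10 (2.77) and Tgm2 (2.69). The move of Dhrs3 from rank 3 to last held for both lengths.

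**Figure D4:**
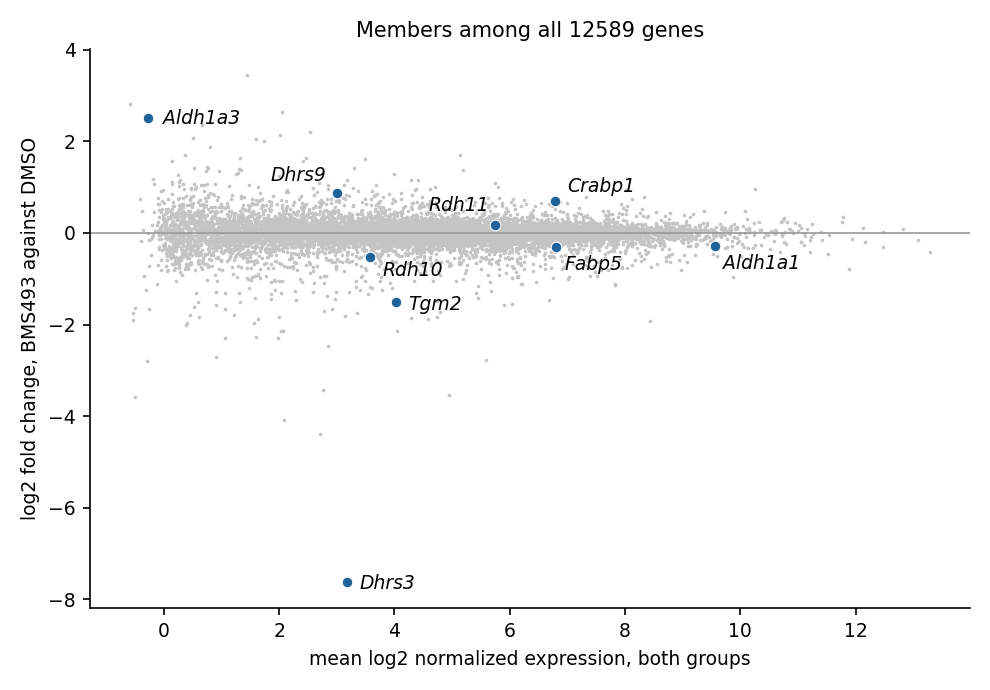
Log2 fold change of BMS493 against DMSO (y axis) by mean log2 normalized expression over both groups (x axis) for all 12589 genes (grey points) and the 9 genes (blue). Dhrs3 lies far below every other gene, Aldh1a3 is at the low end of expression near the top, and Aldh1a1 is among the most expressed genes and close to 0.

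The wider pathway was read from a list of 51 genes, of which 27 had a value. Of these 27, 8 fell, 8 rose and 11 did not pass, with a median log2 fold change of -0.02 against 0.01 for all genes. Without the members, 19 genes were left, of which 4 fell and 4 rose, or 42.1% against 18.6% of all genes. The list was written with earlier results known, and a share of this kind is a description. On 6 degrees of freedom 6 fell and 3 rose, and Lrp2, Scarb1, Lpl, Rara and Rxra were lost besides Rdh10 and Rdh11. None of the Cyp26 genes, which encode the enzymes that clear RA, had a value. The paper names Cyp26b1 among the transcripts that fell with BMS493, so that a missing value here does not mean a gene was not expressed.

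In uptake, the 2 receptors on the list with a value rose. Lrp2, the endocytic receptor megalin, had a log2 fold change of 0.45 (SE 0.134, limma adjusted p = 0.0150) and Scarb1, a lipoprotein receptor, one of 0.19 (SE 0.0468). Among genes of ester storage and release, Lpl, the lipoprotein lipase, fell by 0.22 (SE 0.0723). Lipe, the hormone-sensitive lipase, had -0.37 (SE 0.163) and Dgat1, an acyltransferase, 0.10 (SE 0.0817), and neither passed. Bco2, which cleaves carotenoids, had 0.57 (SE 0.243) and did not pass.

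Among the receptors, Rarb, a direct RA target, fell by 3.59 on the log2 scale (SE 0.325), from a level of 2.46 on the linear scale with DMSO to 0.205 with BMS493. Its mean log2 expression of -0.49 lay near the floor of the table, where an added count would set part of the fold. Rarg, the RA receptor with the highest level per kb here (24.5 with DMSO), fell by 0.40 (SE 0.0486), from 104 to 79.0 on the linear scale. Rara rose by 0.16 (SE 0.0552) and Rxra, a partner of all RA receptors, by 0.17 (SE 0.0536). Rxrb (-0.01, SE 0.0575) and Ppard, which encodes PPARδ (0.08, SE 0.0655), did not pass. The summed level of the 6 receptors was 67.2 per kb with DMSO and 64.0 with BMS493, or 95.2%.

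**Figure D5:**
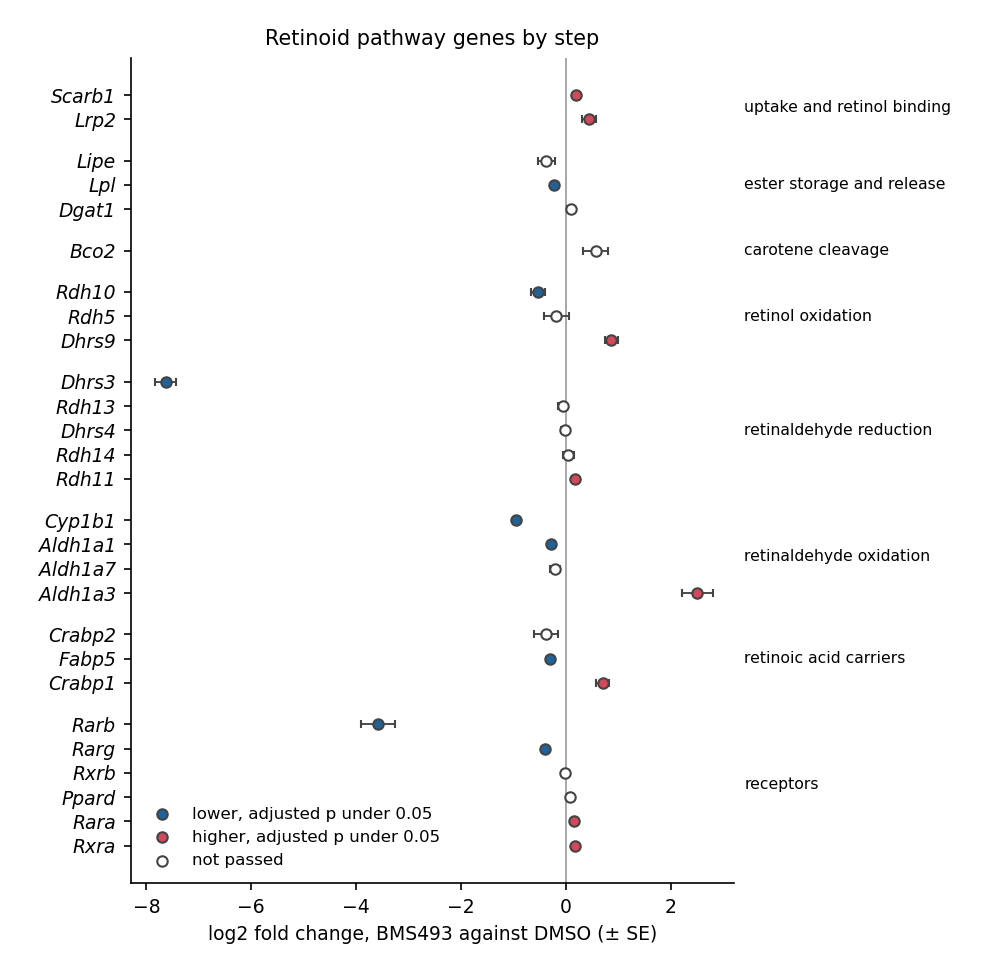
Log2 fold change of BMS493 against DMSO (x axis, bars are ± SE) for the 27 retinoid pathway genes with a value, grouped by step, with genes past an adjusted p of 0.05 in blue (lower) or red (higher) and the others open. Blue and red points stand in the same step for retinol oxidation, retinaldehyde reduction, retinaldehyde oxidation, the carriers and the receptors.

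Dhrs3, Tgm2 and Rarb are also on a list of 19 known RA targets, of which 10 had a value. Of these 10, 8 fell and 2 did not pass. Without the members it was 6 of 8 that fell, beside 9.79% of all genes. This list too was written with earlier results known, and its count is a description. Besides Rarb these were Hic1, a transcriptional repressor (-1.85, SE 0.0882), Cd38, an NAD hydrolase (-1.07, SE 0.204), the homeobox genes Meis2 (-0.67, SE 0.0527) and Meis1 (-0.18, SE 0.0584), and Gprc5a, an RA-induced orphan receptor (-0.52, SE 0.0646). Crabp2 (-0.38, SE 0.221) and Nrip1 (-0.11, SE 0.0737) did not pass. On 6 degrees of freedom Meis1 was lost. Dhrs3 had the lowest fold change of the 10 and Tgm2 the 4th lowest.

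Promoters from RefSeq (GRCm38.p6, 250 bases before to 50 after each start) were searched for the direct repeats on which RA receptors sit. A half-site was read as AGGTCA on either strand. The variants AGTTCA and GGGTCA counted as well, and so did GGTTCA. A repeat was a pair of half-sites on 1 strand, spaced by 1, 2 or 5 bases. The table held 9 windows for 5 of the members (Dhrs3, Dhrs9, Rdh11, Aldh1a1 and Crabp1), and none for Rdh10, Aldh1a3, Fabp5 and Tgm2. None of the 9 windows held such a repeat, where 0.588% of all 32851 promoters did, and 4 of the 9 held 1 half-site each, where 43.7% of all promoters held at least 1. The Rarb window, by contrast, held a pair of half-sites spaced by 5 bases, as do 0.0974% of all promoters, whose first base lay 53 bases before the start. It is shown first (chr14:16575493-16575549, minus strand), beside the 250 bases before the start of Dhrs3 (chr4:144892577-144892826, plus strand, at the first of its 3 starts), where the fall was largest, and before the starts of Dhrs9 (chr2:69380212-69380461, plus strand), Crabp1 (chr9:54764498-54764747, plus strand) and Aldh1a1 (chr19:20492333-20492582, plus strand, at the first of its 2 starts). Capitals mark half-sites on either strand.
Rarb: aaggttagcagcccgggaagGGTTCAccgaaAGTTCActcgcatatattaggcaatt
Dhrs3: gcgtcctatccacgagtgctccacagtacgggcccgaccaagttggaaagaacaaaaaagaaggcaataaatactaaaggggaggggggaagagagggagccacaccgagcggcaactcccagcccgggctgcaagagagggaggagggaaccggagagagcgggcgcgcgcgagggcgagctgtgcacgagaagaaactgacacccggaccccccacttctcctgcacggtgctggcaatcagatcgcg
Dhrs9: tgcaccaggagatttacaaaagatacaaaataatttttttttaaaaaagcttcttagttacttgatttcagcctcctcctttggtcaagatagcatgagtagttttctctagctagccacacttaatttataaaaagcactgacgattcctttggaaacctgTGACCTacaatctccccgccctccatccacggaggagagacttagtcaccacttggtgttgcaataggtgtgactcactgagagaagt
Crabp1: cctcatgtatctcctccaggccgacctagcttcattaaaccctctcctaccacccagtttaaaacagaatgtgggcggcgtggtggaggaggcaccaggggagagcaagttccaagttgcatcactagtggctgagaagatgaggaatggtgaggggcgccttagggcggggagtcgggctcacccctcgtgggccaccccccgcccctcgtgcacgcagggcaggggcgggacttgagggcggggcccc
Aldh1a1: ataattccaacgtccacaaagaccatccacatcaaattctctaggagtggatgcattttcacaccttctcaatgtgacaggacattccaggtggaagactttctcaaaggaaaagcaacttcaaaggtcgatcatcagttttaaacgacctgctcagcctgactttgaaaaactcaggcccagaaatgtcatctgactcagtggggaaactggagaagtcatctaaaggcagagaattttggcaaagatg
The half-site of Dhrs9 reads AGGTCA on the minus strand, with its first base in the line 88 bases before the start. The remaining half-sites lay at the inner start of Aldh1a1 and at both starts of Rdh11. A repeat that is not in these windows may lie elsewhere, and no binding was measured here.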

How the data were processed

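RNA-seq of mSSC-YFP stromal cells, 4 cultures with DMSO and 4 with BMS493, was read from the comparison table that the authors deposited, which holds no values of single cultures. For each of 12589 genes it lists the mean of log2 normalized expression, a log2 fold change (BMS493 minus DMSO), t, the p-value and its Benjamini-Hochberg adjusted value, written with decimal commas. The t the authors deposited is a score with no fixed range, and the deposited p-values stop at 7 decimals. The submitters' processing notes name FastQC, STAR 2.3.0e, limma and the builds mm10 and GRCm38. The study's methods describe stranded single-end mRNA libraries, Rsubread counts of uniquely mapped reads per Ensembl gene and scaling by trimmed means of M-values. The extract protocol in the labels describes array and qPCR work instead. No filter on expression is stated, and the lowest mean log2 expression was -0.58.

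Because the deposited unit allowed no test of samples, calls are those of the deposited adjusted p. Recomputed from the listed p, it differed by at most 1.46e-06. SE, intervals, group levels, percentiles among 500 genes of like expression and sums per step were computed in Python 3.11.15 with scipy 1.17.1, and the scripts were tested on simulated data. Gene symbols were looked up in GENCODE M21 (GRCm38: 11765 by symbol, 603 by an older symbol, 18 with several genes, 203 unmatched). Genes of the lists, markers among them, were looked for by 1 symbol each, and those without a value may stand under another name. Named are the 9 members, genes of the pathway, RA target and family lists past the threshold, nearest measured neighbours past it, and other listed genes with a value where a step or list is accounted for. Members and lists were chosen with earlier results of these data known. A further 2 listed genes are not reported here and were taken out of the lists, which raises the share of passing genes in the pathway, RA target and fatty acid-binding protein lists.

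Alternatives were an adjusted p under 0.01, a fold change of at least 1.5, a mean log2 expression of at least 1, 6 degrees of freedom, centred fold changes, 200 or 1000 genes of like expression, t in place of the fold change, longest transcripts and, chosen after seeing the data, 3 degrees of freedom. Protein sequences were not used here.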

Additional observations from a re-analysis of the deposited data

How the results depend on the processing

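No paired analysis was possible because the deposited comparison has no value per culture, and no culture could be left out. At an adjusted p under 0.01 the 4 rising members became 2 (Rdh11 and Crabp1 were lost) and the 8 rising pathway genes 3. With a fold change of at least 1.5, the falling members were 2, Dhrs3 and Tgm2, and the rising ones 3, Dhrs9, Aldh1a3 and Crabp1. When genes under a mean log2 expression of 1 were dropped, Aldh1a3 was the only member lost, and the falling pathway genes became 7, without Rarb. With p recomputed on 6 degrees of freedom 7 of 9 members passed, without Rdh10 and Rdh11, and the rising pathway genes became 3. With 3 degrees of freedom, chosen after seeing the data and applied to every gene, 0 members passed in either direction, 0 pathway genes rose and 0 fell, and 0 of all 12589 genes passed. An unadjusted p under 0.05 from the limma t was then held by 8 of 9 members, 6 rising and 7 falling pathway genes and 1895 of all genes. Centring moved no member by as much as its SE. Ranked on t, the percentile of Aldh1a3 went from 99.8 to 100 and that of Crabp1 from 100 to 98.2, and other percentiles stayed within their counting interval, as did all with 200 or 1000 genes. With longest transcripts the log2 ratio of retinaldehyde oxidation was -0.35 in place of -0.39, and the other 3 steps moved by less than their error.

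Of 7682 genes with a p between 1e-04 and 0.5, t and p implied a median of 33.0 degrees of freedom, but under 6 for 33 genes and under 4 for 14, the lowest 3.27. A comparison of 4 with 4 cultures and no further term leaves 6 before any borrowing, which adds to them. The 33 genes lay under 6 even at the edge of rounding, so that 6 is not the strictest setting that the listed values allow. Whether a term was added or cultures were left out was not tested, and the group levels assume neither made the groups unequal.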

Other observations

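Relatives of the members outside the retinoid steps were read from family lists. Of 20 aldehyde dehydrogenase genes 16 had a value, and apart from Aldh1a1 and Aldh1a3, 3 fell, 1 rose and 10 did not pass, so that 28.6% passed beside 18.6% of all genes. Aldh1l2, a mitochondrial enzyme of folate metabolism, fell by 0.31 on the log2 scale (SE 0.0436), at a mean log2 expression of 9.77. Aldh2, the mitochondrial acetaldehyde dehydrogenase, fell by 0.24 (SE 0.0483), and Aldh18a1, an enzyme of proline synthesis, fell by 0.17 (SE 0.0502). Aldh3a1, which oxidises aromatic and lipid aldehydes, rose by 0.62 (SE 0.167). With p recomputed on 6 degrees of freedom Aldh18a1 and Aldh3a1 no longer passed. In the Dhrs family 8 of 11 genes had a value, and besides Dhrs3 and Dhrs9 only Dhrs7 passed, with a fall of 0.36 (SE 0.120) that was lost on 6 degrees of freedom. Of 14 genes of the fatty acid-binding protein family 3 had a value, and the 1 that is not a member, Crabp2, did not pass.

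The nearest genes with a value on each side of the members gave 18 neighbours, of which 6 passed the threshold that 18.6% of all genes passed. Vps13d, 44.4 kb from Dhrs3, fell by 0.47, whereas Gm13127, 304 kb away on its other side, had a log2 fold change of -0.01. Pag1, 179 kb from Fabp5, fell by 0.96, and Lbp, 160 kb from Tgm2, fell by 0.37. Lrp2, 19.8 kb from Dhrs9, rose by 0.45, Zfyve26, 40.1 kb from Rdh11, by 0.21, and Rpl7, 1.11 kb from Rdh10, by 0.10. The neighbours of Aldh1a1, Aldh1a3 and Crabp1 did not pass, among them Lrrk1 (0.01), which lies 2.54 kb from Aldh1a3.

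Reads shared with near-identical copies were looked for in the transcripts of GENCODE M21. Windows of 100 bases shared with another gene made up 0.382% of Fabp5 (with the pseudogene Gm6166) and 0.0443% of Aldh1a1 (with Aldh1a7), and none of Rdh10, Dhrs9, Dhrs3, Rdh11, Aldh1a3 and Crabp1.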
